A study of Mus musculus with 4 samples.

Results

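Imprinted genes were followed cluster by cluster in mouse embryonic stem cells (ESCs) labelled as wild type (WT) or as a knockout clone of *Zfp296* (KO2). The members are 42 gene symbols listed by name as known imprinted genes, and they fall into 18 imprinted clusters or single loci. A row of the count files could be assigned to 39 of the 42, out of 48526 gene rows in all. The identifiers found for *Rian* and *Mirg* are not among the rows, and *Kcnq1ot1* has none in the gene names used for matching. These 3 were therefore not analysed here. Of the 39, 27 passed the filter on low counts and were tested, and they represent 15 of the 18 clusters.

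Imprinted genes are expressed mainly from the chromosome inherited from one parent. They lie in clusters that share a control region, whose DNA methylation is set in the egg or the sperm and is then held in place in the embryo by ZFP57, TRIM28 and DNMT1, among others. ESC lines are known to differ in the state of their imprints, and a clonal line carries forward the state of the cell it grew from. Maternally and paternally expressed below refer to the class each gene is known for, and some members, such as *Ube3a*, *Ppp1r9a*, *Ddc* and *Cd81*, are known to be imprinted mainly in other tissues. The counts hold no allele information, so the parental copy a read came from was not measured.

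The samples are 2 replicates labelled WT and 2 labelled KO2, from CRISPR clone 2. The study's methods name R1, an established mouse line, for its ESCs and as the parent of its knockout clones. A guide against the *Zfp296* first exon was used for these clones. Both groups grew on gelatine in serum medium with LIF, PD0325901 and CHIR99021 according to the study's methods. The KO2 group is 1 monoclonal line, so the edit and any other property of that clone cannot be told apart. Total RNA was depleted of ribosomal RNA and sequenced. The study's methods state that RNA was isolated in duplicate. What else separates the replicates of a group is not given, so p-values measure the spread between these samples. The libraries labelled WT held 2829914 and 4334499 counts on genes and those labelled KO2 held 7470907 and 7437294. On these raw totals 3 counts, taken as the smallest usable level, correspond to between 0.402 and 1.06 CPM, the counts of a gene scaled to 1 common library total. All other CPM use totals normalized between libraries (TMM), on which 3 counts in WT replicate 1 were 1.12 CPM.

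The transcript of the targeted gene was not lower under the label KO2. *Zfp296* had 31 and 31 counts in the libraries labelled WT and 416 and 282 in those labelled KO2, or 9.44 ± 2.99 and 45.2 ± 10.7 CPM (SD, n = 2), which is 2.31 ± 0.28 (SE) on the log2 scale with an adjusted p of 4.54e-05 by edgeR's quasi-likelihood test. Its transcript was therefore higher, not lower, in the libraries labelled KO2, and the edited sequence itself cannot be seen in counts per gene. The study reported checking its knockout clones by sequencing and, for the protein, by mass spectrometry. Transcript counts do not measure the protein, so they do not settle whether it was lost. The Y-linked genes *Ddx3y*, *Eif2s3y*, *Uty* and *Kdm5d* had at most 1 count in a library labelled WT and between 11 and 2197 in a library labelled KO2. The study's methods name R1, known as a male line, for its ESCs and as the parent of its knockout clones. Whether the libraries labelled WT come from the same line, or from cells without a Y chromosome, was not tested. The difference in Y-linked transcripts goes with the labels. Anything tied to it cannot be told apart from the edit in any comparison here. For these reasons every direction below is given for libraries as they are labelled. All 6 pluripotency markers (*Pou5f1*, *Nanog*, *Zfp42*, *Esrrb*, *Klf4*, *Tfcp2l1*) were tested and 0 were called by edgeR (1 had an unadjusted p under 0.05 and 0 were called by DESeq2), and their summed level was 4109 and 4155 CPM in the libraries labelled WT and 4326 and 4106 in those labelled KO2. Summed markers of primitive endoderm, trophoblast, fibroblasts and 2-cell-like cells stayed at or below 11.4 CPM in every library, while the 5 neural markers with a row summed to 147 and 142 CPM in the libraries labelled WT and to 194 and 185 CPM in those labelled KO2, almost all of it *Nes* and *Tubb3*, and their part in the results was not tested.

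With an adjusted p under 0.05 over all 12883 tested genes, 3 imprinted genes were called lower in the libraries labelled KO2 and 0 were called higher (edgeR). The 3 are *Peg3* and *Plagl1*, both paternally expressed, and *Ppp1r9a*, of the maternally expressed class. Over all tested genes, 3.04% were called lower and 2.61% higher, so 3 of 27 (11.1%) lower rests on few genes. At an unadjusted p under 0.05, 9 members were lower and 1 was higher, against 9.6% and 9.81% of all tested genes. DESeq2 called 3 lower and 1 higher. The called genes belong to 3 different clusters on 3 chromosomes.

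**Figure D1:**
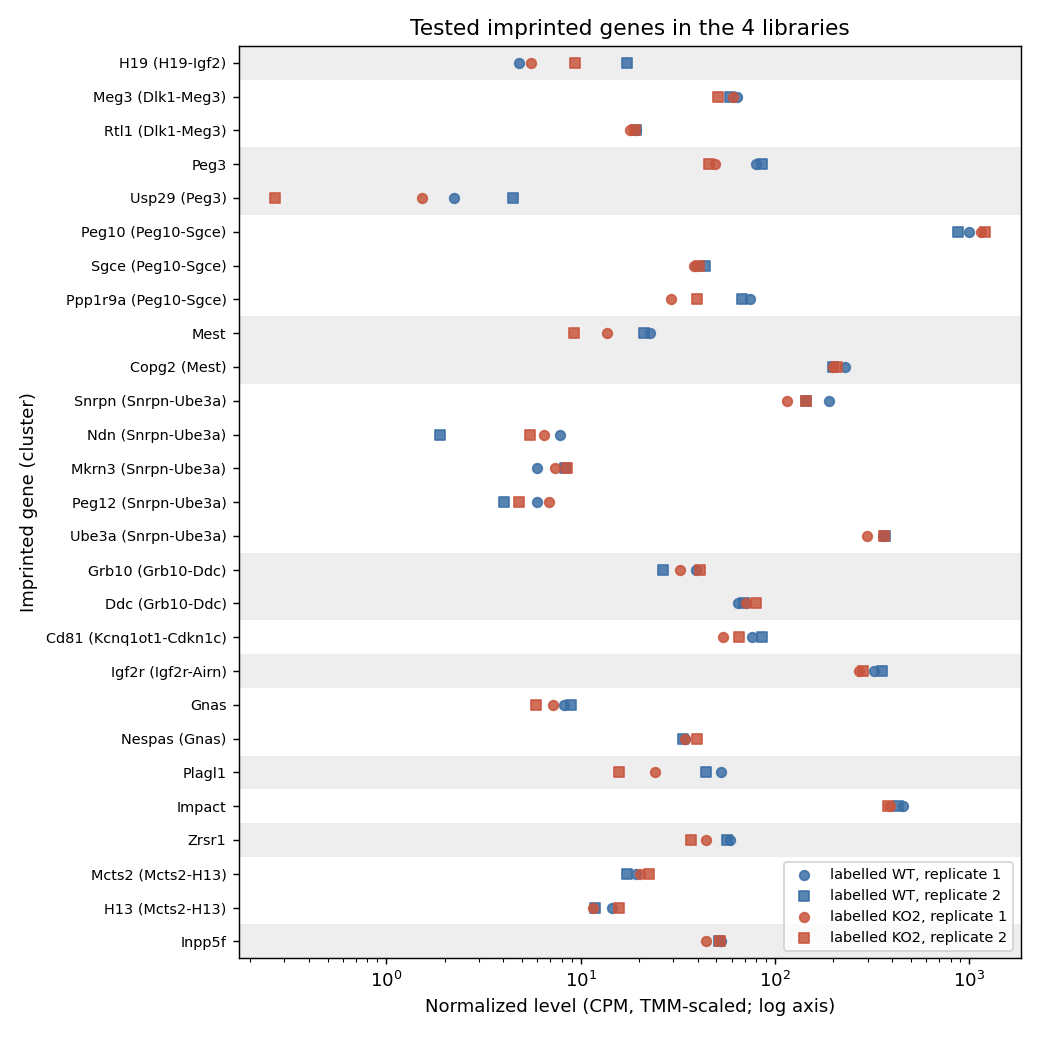
Normalized level in CPM (log axis) of the 27 tested imprinted genes, in cluster order, with 1 point for each of the 4 libraries (blue, labelled WT; red, labelled KO2; circles, replicate 1; squares, replicate 2). *Peg10* lies between 878 and 1203 CPM, and the points of *Peg3*, *Ppp1r9a* and *Plagl1* separate by group with those labelled KO2 lower.

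*Peg3* encodes a large zinc finger protein known for its part in growth and in maternal care. The gene (ENSMUSG00000002265) spans chr7:6656603-6683132 of mm9 on the minus strand. Its level was 79.8 and 85.8 CPM in the libraries labelled WT and 49.1 and 45.9 CPM in those labelled KO2. Each library labelled KO2 was below each library labelled WT, and the difference was larger than the spread between replicates. In bulk RNA, fewer cells that express a gene and less RNA per cell cannot be told apart. *Peg3* was 1.75-fold lower in the libraries labelled KO2, a log2 change of -0.80 ± 0.15 (SE; adjusted p = 0.00358, edgeR).

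*Usp29*, a gene for a deubiquitinase in the same cluster, is also paternally expressed. Its row stands for a model of 2610 exon bases in mm9, which may hold only part of the transcript. It had only 6 and 19 counts in the libraries labelled WT and 12 and 2 in the more deeply sequenced libraries labelled KO2. This gave 2.24 and 4.49 CPM against 1.52 and 0.267 CPM, groups that do not overlap. The log2 fold change of -1.95 had a standard error of 0.79 and did not pass the test (adjusted p = 0.174, edgeR). It rested on single libraries, with values of -3.63 without KO2 replicate 1, -1.24 without KO2 replicate 2 and -1.28 without WT replicate 2. *Zim1*, the maternally expressed zinc finger gene beyond *Peg3*, had 2, 2, 7 and 4 counts and was not tested. No other gene within 100 kb of *Peg3* passed the filter. *Peg3* itself was the one member of this cluster with over 30 counts in every library.

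In RefSeq (GRCm38.p6), the transcripts of *Peg3* and *Usp29* start 164 bases apart on opposite strands, so the 300-base windows around both starts share 263 bases. The *Peg3* window is printed because *Peg3* was called and *Usp29* starts inside it, and the *Plagl1* window because that gene fell furthest among those called. Each runs from 250 bases before the start to 50 after it, on the strand of the gene. Capitals mark CG dinucleotides, the sites where imprints are methylated.

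Peg3, chr7:6730370-6730669, minus strand: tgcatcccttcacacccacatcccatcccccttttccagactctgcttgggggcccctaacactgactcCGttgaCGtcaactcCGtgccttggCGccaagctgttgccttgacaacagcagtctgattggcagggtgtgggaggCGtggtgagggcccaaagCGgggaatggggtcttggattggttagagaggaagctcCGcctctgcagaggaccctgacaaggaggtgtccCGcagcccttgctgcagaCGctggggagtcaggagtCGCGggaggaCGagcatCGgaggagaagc

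Plagl1, chr10:13090582-13090881, plus strand: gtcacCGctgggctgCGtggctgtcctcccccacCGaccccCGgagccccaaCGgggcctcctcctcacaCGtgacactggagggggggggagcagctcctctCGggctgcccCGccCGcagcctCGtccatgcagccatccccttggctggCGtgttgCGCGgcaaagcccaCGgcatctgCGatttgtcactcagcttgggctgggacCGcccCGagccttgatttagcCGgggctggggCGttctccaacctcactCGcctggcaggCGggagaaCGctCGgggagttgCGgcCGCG

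The *Peg3* window holds 13 CG dinucleotides and the *Plagl1* window 26, while the median over all 32851 promoter windows of the same length was 7. The hexamer TGCCGC, which ZFP57 binds when it is methylated, was searched on both strands (as TGCCGC or GCGGCA). It occurs once in the *Plagl1* window, as GCGGCA from base 161, and in neither strand of the *Peg3* window. Of the 34 members with a window that was searched, 11 hold the hexamer in at least 1 window (32.4%), compared to 13.1% of all 27025 genes with a window. Chromosome 18 was left out of the search of members, so *Impact*, a paternally expressed member there, is missing from these shares. The share over all genes includes that chromosome. Among the paternally expressed members it was 7 of 19, and among the maternally expressed members 4 of 15. These shares were not matched for CG content, and windows of 1 gene can overlap, as those of *Mest* do. A match is a description of the letters only, and binding was not measured here.

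*Plagl1*, also known as *Zac1*, encodes a zinc finger transcription factor that restrains growth and is known to act on other imprinted genes. The gene (ENSMUSG00000019817) spans chr10:12810497-12851500 of mm9 on the plus strand. The 4 libraries gave 52.9 and 43.9 CPM with the label WT and 24.1 and 15.8 CPM with the label KO2. The groups do not overlap, although the replicates labelled KO2 differ from each other more, in proportion, than those labelled WT. *Plagl1* was 2.4-fold lower in the libraries labelled KO2, with a log2 change of -1.27 ± 0.23 (SE; adjusted p = 0.00216, edgeR). Of the 4 other annotated genes within 100 kb, 3 were tested and 0 were called by edgeR (0 had an unadjusted p under 0.05 and 0 were called by DESeq2). *Ltv1*, which encodes a ribosome assembly factor, had a log2 change of -0.01 ± 0.13 (SE; adjusted p = 0.973, edgeR), and *Phactr2*, a phosphatase regulator gene that reaches past 100 kb, of -0.65 ± 0.32 (SE; adjusted p = 0.267, edgeR). The third, *Sf3b5*, had a value of 0.18 ± 0.26 (SE). A difference between *Plagl1* and these neighbours was not tested.

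*Ppp1r9a* encodes neurabin, an actin-binding protein that holds protein phosphatase 1 at the cytoskeleton. The gene (ENSMUSG00000032827) spans chr6:4853004-5115661 of mm9 on the plus strand. It stood at 74.5 and 68.0 CPM in the libraries labelled WT and at 29.0 and 39.8 CPM in those labelled KO2, again without overlap. This is a 2.07-fold lower level in the libraries labelled KO2 and a log2 change of -1.05 ± 0.18 (SE; adjusted p = 0.0017, edgeR). Both neighbours that were tested, the paraoxonase genes *Pon2* and *Pon3*, were not called, with log2 changes of -0.65 ± 0.33 (SE; adjusted p = 0.299, edgeR) and 0.26 ± 0.44 (SE; adjusted p = 0.817, edgeR).

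The paternally expressed genes at the other end of this cluster were not called. *Peg10*, a gene derived from a retrotransposon and needed for the placenta, had 1001 and 878 CPM in the libraries labelled WT and 1150 and 1203 CPM in those labelled KO2. All values labelled KO2 were above those labelled WT, but by only 0.32 on the log2 scale (standard error 0.10, adjusted p = 0.072, edgeR), which did not pass. DESeq2 gave an adjusted p of 0.048 and the edgeR fit without Y-linked, mitochondrial and small RNA genes one of 0.0491. *Sgce*, which encodes epsilon-sarcoglycan and starts beside *Peg10* on the opposite strand, had 39.1 and 43.7 CPM against 38.6 and 40.9 CPM, and its groups overlap (log2 change -0.07 ± 0.18 SE). Within the cluster, the values of *Ppp1r9a* and *Peg10* thus lay on opposite sides of 0, and the difference between them was not tested. The RefSeq window of the CG-rich start of *Ppp1r9a* holds 48 CG dinucleotides and no TGCCGC on either strand, and is shown for contrast with the windows of *Peg3* and *Plagl1*, again with CG in capitals.

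Ppp1r9a, chr6:4903061-4903360, plus strand: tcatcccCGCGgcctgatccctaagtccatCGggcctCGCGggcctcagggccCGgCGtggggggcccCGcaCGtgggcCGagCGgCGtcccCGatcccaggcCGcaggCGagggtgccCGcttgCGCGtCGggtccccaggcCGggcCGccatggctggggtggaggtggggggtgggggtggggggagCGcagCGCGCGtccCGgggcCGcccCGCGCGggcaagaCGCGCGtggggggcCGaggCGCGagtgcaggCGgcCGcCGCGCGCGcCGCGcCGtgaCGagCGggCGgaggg

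**Figure D2:**
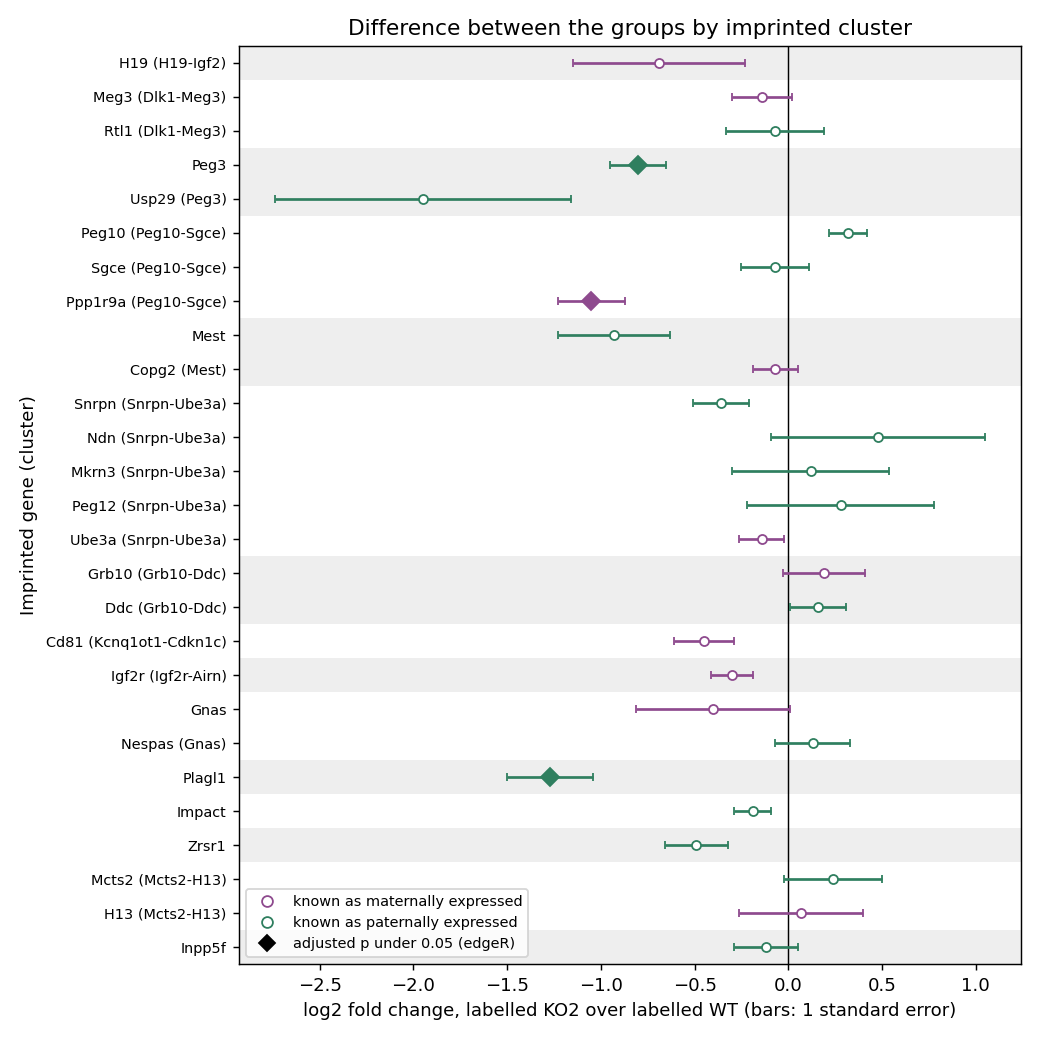
Log2 fold change between the libraries labelled KO2 and those labelled WT for each tested imprinted gene, in cluster order, with bars of 1 standard error (purple, maternally expressed; green, paternally expressed; filled diamonds, adjusted p under 0.05 with edgeR). The filled diamonds are *Peg3* at -0.80, *Ppp1r9a* at -1.05 and *Plagl1* at -1.27, and 24 of the 27 genes are within 1 log2 unit of 0.

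At the *Mest* locus, neither the paternally nor the maternally expressed gene was called. *Mest*, which encodes a hydrolase-like protein and is paternally expressed, had 22.7 and 21.3 CPM in the libraries labelled WT and 13.7 and 9.22 CPM in those labelled KO2. The groups do not overlap, and the log2 change of -0.93 ± 0.30 (SE; adjusted p = 0.078, edgeR) passed the threshold only without KO2 replicate 1 (-1.24, adjusted p = 0.0456, edgeR). *Copg2*, a coat protein subunit gene that overlaps the end of *Mest* on the opposite strand, had 230 and 200 CPM against 200 and 209 CPM, with overlapping groups and a log2 change of -0.07 ± 0.12 (SE). The overlap takes 904 exon bases, 23.0% of *Mest*, so reads from that stretch may be missing or may be shared between them.

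The largest cluster measured was that of *Snrpn* and *Ube3a* on chromosome 7, with 5 of its 6 members tested and 0 called by edgeR (1 with an unadjusted p under 0.05, 0 by DESeq2). *Snrpn*, which encodes a splicing protein and is paternally expressed, had 190 and 145 CPM in the libraries labelled WT and 116 and 144 CPM in those labelled KO2. The groups only just separate, and the log2 change of -0.36 ± 0.15 (SE; adjusted p = 0.183, edgeR) reached the threshold without KO2 replicate 2 (-0.53, adjusted p = 0.0462, edgeR). *Ube3a*, the ubiquitin ligase gene that is maternally expressed in neurons, had 360 and 368 CPM against 298 and 363 CPM, overlapping groups with a log2 change of -0.14 ± 0.12 (SE). The remaining paternally expressed members had few counts. *Mkrn3*, for a RING finger protein, and *Peg12*, for a GSK3-binding protein, lay between 4.02 and 8.55 CPM with overlapping groups. *Ndn*, which encodes necdin, had 21 and 8 counts in the libraries labelled WT and 51 and 41 in those labelled KO2, and its sign rested on WT replicate 2, without which the log2 fold change moved from 0.48 to -0.39. *Magel2*, a relative of *Ndn*, had 4 counts in WT replicate 1 and 0 in the other libraries.

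In the *H19* and *Igf2* cluster the noncoding RNA *H19* was measured but *Igf2*, a fetal growth factor gene, was close to absent, with 1 count in each of the 4 libraries. *H19* had 13 and 73 counts in the libraries labelled WT and 44 and 70 in those labelled KO2, or 4.84 and 17.2 CPM against 5.58 and 9.36 CPM. The replicates labelled WT lie on both sides of those labelled KO2, so the log2 change of -0.69 ± 0.46 (SE; adjusted p = 0.447, edgeR) did not pass, and without WT replicate 2 it was 0.62. Upstream of *H19* lies the region that CTCF binds on the maternal chromosome, and the core of its sites, CCGCGNGGNGGCAG on either strand, occurs 3 times within 5000 bases before the *H19* start, between 2172 and 3897 bases away. The core was taken from sites known in this region, so finding it here was fixed in advance. The search only locates sites that match the core exactly, and a known site that differs from it would be missed. Over chromosome 7, this region included, 7 of 30505 windows of this length (0.0229%) hold such a core. The 3 matches are printed from the mm9 genome because they mark the control region of this cluster, on the strand that carries the core, with the core in capitals and 8 bases on each side.

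chr7:149766206-149766235, minus strand: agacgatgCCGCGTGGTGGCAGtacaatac

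chr7:149766661-149766690, minus strand: ggatgctaCCGCGCGGTGGCAGcatactcc

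chr7:149767931-149767960, minus strand: gggagttgCCGCGTGGTGGCAGcaaaatcg

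The *Dlk1* and *Meg3* cluster on chromosome 12 is known to be silenced in some pluripotent lines. Reads on *Meg3* and *Rtl1* were present in all 4 libraries, and the state of the imprint was not measured. *Meg3*, a maternally expressed noncoding RNA, had 64.1 and 58.8 CPM in the libraries labelled WT and 60.5 and 50.7 CPM in those labelled KO2. Its groups overlap, with a log2 change of -0.14 ± 0.16 (SE; adjusted p = 0.708, edgeR). *Rtl1*, a retrotransposon-derived gene on the opposite strand, stood at 19.4 and 19.4 CPM against 18.01 and 18.98 CPM (log2 change -0.07 ± 0.26 SE). *Rtl1* is known as paternally expressed, but maternal transcripts run across it on the other strand, and reads of these could not be told apart from its own if strand was not used in counting. *Dlk1*, for a membrane protein of the Notch ligand family, had 1 count in WT replicate 2 and 0 in the other libraries.

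Of the 6 genes in the *Kcnq1ot1* and *Cdkn1c* cluster, only *Cd81*, for a tetraspanin at the cell surface, was tested. It had 76.0 and 85.5 CPM in the libraries labelled WT and 54.2 and 65.0 CPM in those labelled KO2, without overlap, and a log2 change of -0.45 ± 0.16 (SE; adjusted p = 0.113, edgeR). *Cdkn1c*, the gene for the cell cycle inhibitor p57, had 4, 1, 17 and 8 counts in the order WT replicates 1 and 2 and KO2 replicates 1 and 2. *Ascl2*, a trophoblast transcription factor gene, had 0, 1, 1 and 7 counts in the same order, while *Phlda2* and *Slc22a18* were at 0 in all 4 libraries. On the raw library totals this allows a level of up to 1.06 CPM in the shallowest and 0.402 CPM in the deepest. The main genes for growth control in this cluster were therefore not detectable or barely so at this depth.

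*Igf2r*, which encodes the receptor that clears IGF2, had 324 and 355 CPM in the libraries labelled WT and 270 and 282 CPM in those labelled KO2. Every value labelled KO2 was lower, with a log2 change of -0.30 ± 0.11 (SE; adjusted p = 0.13, edgeR) that did not pass. *Airn*, the noncoding RNA that silences *Igf2r* on the paternal chromosome in differentiated tissue, had 0 counts in all 4 libraries. *Grb10*, a growth-restraining adaptor gene, had 39.1 and 26.7 CPM against 32.6 and 41.2 CPM, and its neighbour *Ddc*, for dopa decarboxylase, had 64.8 and 69.5 CPM against 70.9 and 80.1 CPM. Neither was called, at 0.19 ± 0.22 and 0.16 ± 0.15 (SE) on the log2 scale.

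At the *Gnas* locus, *Nespas*, a paternally expressed antisense RNA, had 34.3 and 33.8 CPM in the libraries labelled WT and 34.6 and 39.8 CPM in those labelled KO2. *Gnas*, the gene for the stimulatory G protein subunit, is a row of 11186 exon bases in which transcripts were not separated. It had 8.20 and 8.98 CPM against 7.23 and 5.88 CPM. Neither passed the test (log2 fold changes 0.13 and -0.40, standard errors 0.20 and 0.41). They share 988 exon bases on opposite strands, 31.4% of *Nespas* and 8.83% of *Gnas*. *Gnas* also shares 1469 exon bases (13.1%) with *AF085738* on the opposite strand. The values of *Nespas* and *Gnas* are therefore both uncertain. The same holds in part for *Zrsr1* and *Mcts2*, which arose as copies of other genes and can lose reads that match both.

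*Zrsr1*, a paternally expressed gene for a splicing factor inside an intron of *Commd1*, had 58.5 and 56.5 CPM in the libraries labelled WT and 44.4 and 37.2 CPM in those labelled KO2, a log2 change of -0.49 ± 0.17 (SE; adjusted p = 0.114, edgeR). *Mcts2*, a translation factor gene inside an intron of *H13*, had 19.4 and 17.2 CPM against 20.3 and 22.6 CPM, and *H13*, for signal peptide peptidase, 14.5 and 11.8 CPM against 11.5 and 15.8 CPM. Their log2 fold changes were 0.24 and 0.07 (standard errors 0.26 and 0.33). *Impact*, which restrains the kinase GCN2, had 455 and 428 CPM against 392 and 382 CPM (log2 change -0.19 ± 0.10 SE). *Inpp5f*, for an inositol phosphatase, had 52.9 and 51.3 CPM against 44.3 and 51.9 CPM (log2 change -0.12 ± 0.17 SE). Its row covers 8324 exon bases, and its transcripts were not separated. None of these 5 genes was called. *Nnat* and *Nap1l5* had at most 12 counts in any library, and *Dcn*, a matrix protein gene of fibroblasts, was at 0 in all.

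Grouped by parental class, 1 of the 10 maternally expressed members tested and 2 of the 17 paternally expressed members tested were called lower, and 0 of either were called higher by edgeR (DESeq2 called 1 paternally expressed member higher). Their median log2 fold changes were -0.22 and -0.07, and that of all tested genes was 0.013. The median of the paternally expressed members moved to -0.14 without WT replicate 2, to -0.12 without KO2 replicate 2, to -0.03 without KO2 replicate 1 and to 0.005 with ERCC scaling. That of the maternally expressed members moved to -0.14 with ERCC scaling and lay between -0.28 and -0.19 when 1 library was left out. Both classes thus contained genes on each side of 0, from -1.05 to 0.19 and from -1.95 to 0.48, and the difference between the classes was not tested. Over all 27 members the value was below 0 for 18 (66.7%), compared to 48.6% of all tested genes. Both libraries labelled KO2 were below both labelled WT for 12 members and above both for 4, where the shares over all tested genes were 23.4% and 25.4%. With scaling to the spike-ins, 15 of 27 were below 0, compared to 40.0% of all tested genes.

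Set against exon length, as CPM per kilobase of exon (RPKM), *Peg10* had the highest level of the members in every library, between 132 and 181 RPKM. *Impact* followed with 111 to 132 RPKM. *Ube3a* (58.4 to 72.1 RPKM) and *Snrpn* (52.7 to 86.7 RPKM) overlap across the libraries and cannot be ordered. The 3 called genes were lower, at 5.99 and 6.44 RPKM in the libraries labelled WT for *Peg3*, 6.41 and 5.85 RPKM for *Ppp1r9a* and 7.26 and 6.03 RPKM for *Plagl1*, values that overlap between the 3 genes.

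Of 22 genes known to set or keep imprints, 20 were tested, and 1 was called lower and 0 higher by edgeR (1 and 0 by DESeq2, with 3 lower and 2 higher at an unadjusted p under 0.05), a share close to that of all tested genes (5.64% in either direction). The one called was *Dnmt3l*, the cofactor that helps to set imprints in germ cells, at 23.5 and 36.9 CPM in the libraries labelled WT and 16.9 and 10.96 CPM in those labelled KO2 (log2 change -1.15 ± 0.28 SE, adjusted p = 0.0223, edgeR). The *Dnmt3l* call held in 8 of 13 alternatives, with values from -1.5 to -0.75, and was lost without WT replicate 2 (-0.75, adjusted p = 0.242, edgeR), without KO2 replicate 2 (-0.89, adjusted p = 0.0761, edgeR), without the filter, with ERCC scaling and after thinning to the shallowest library. *Zfp57*, the zinc finger protein that recognises methylated imprints, had 226 and 201 CPM against 210 and 198 CPM (log2 change -0.06 ± 0.12 SE, adjusted p = 0.837, edgeR). Its partner *Trim28* had a log2 change of 0.18 ± 0.10 (SE; adjusted p = 0.309, edgeR). *Dnmt1*, which copies methylation at replication, was at 454 and 396 CPM against 344 and 361 CPM (log2 change -0.27 ± 0.11 SE, adjusted p = 0.178, edgeR). *Dnmt3b*, also on this list and not called, was higher under the label KO2. It had 31.3 and 12.5 CPM against 39.3 and 33.4 CPM (log2 change 0.81 ± 0.29 SE, adjusted p = 0.124, edgeR).

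Of 43 further genes reported as imprinted or as neighbours of imprinted genes, 22 were tested, of which 3 were called higher (13.6%) and 1 lower (4.55%), where the shares over all tested genes were 2.61% and 3.04%. DESeq2 called 1 higher and 1 lower. The one lower was *Zdbf2*, a paternally expressed gene, at 247 and 231 CPM in the libraries labelled WT and 160 and 190 CPM in those labelled KO2 (log2 change -0.45 ± 0.12 SE, adjusted p = 0.0353, edgeR). This call held in 7 of 13 alternatives, with values from -0.59 to -0.33, and was lost without KO2 replicate 1 (-0.33), without WT replicate 1 (-0.40), without WT replicate 2 (-0.50), without the filter, with ERCC scaling and after thinning. The 3 higher genes were *Slc38a4*, *Gab1* and *Smoc1*, all known from early embryos for imprinting that depends on maternal H3K27me3 and not on DNA methylation of the oocyte. *Slc38a4*, an amino acid transporter gene, rose from 278 and 287 CPM to 393 and 396 CPM (log2 change 0.48 ± 0.11 SE, adjusted p = 0.0107, edgeR). *Gab1*, a signalling adaptor gene, rose from 96.5 and 117 CPM to 162 and 143 CPM (log2 change 0.51 ± 0.14 SE, adjusted p = 0.0323, edgeR). *Smoc1*, a matrix protein gene, rose from 2.24 and 12.8 CPM to 27.1 and 31.8 CPM (log2 change 1.81 ± 0.38 SE, adjusted p = 0.00725, edgeR), with 6 and 54 counts in the libraries labelled WT. Its size rested on them, at 1.21 without WT replicate 1 and 3.71 without WT replicate 2. *Sfmbt2* and *Jade1*, which belong to the same kind, were not called, at 0.24 and -0.05 on the log2 scale (standard errors 0.14 and 0.10). The calls held in 10 of 13 alternatives for *Slc38a4*, 8 of 13 for *Gab1* and 10 of 12 for *Smoc1*, and without WT replicate 1 those of *Slc38a4* (0.46, adjusted p = 0.071, edgeR) and *Gab1* (0.39, adjusted p = 0.17, edgeR) were lost, as was that of *Gab1* without KO2 replicate 1 (0.42, adjusted p = 0.215, edgeR). With DESeq2 the adjusted p was 0.00215 for *Slc38a4*, 0.0504 for *Gab1* and 0.393 for *Smoc1*. These 5 genes were brought together after their values had been seen, and no test was made of them as a group.

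**Figure D3:**
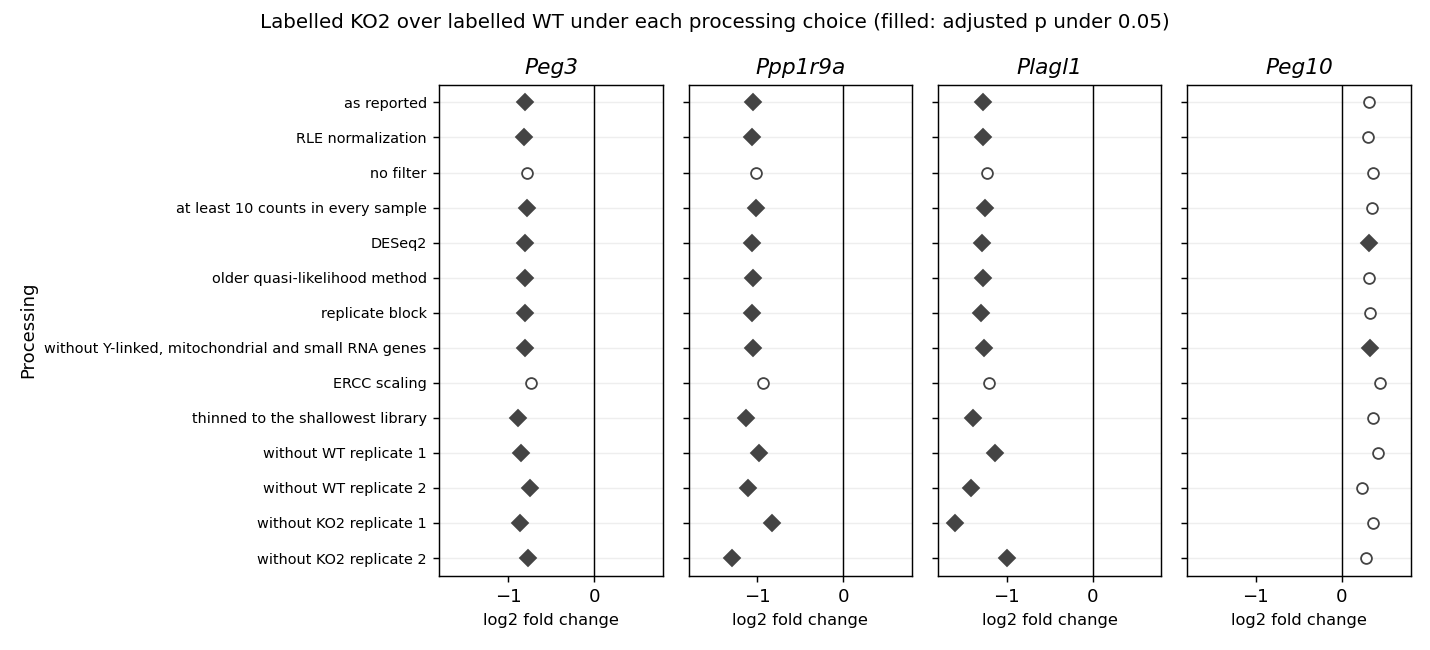
Log2 fold change between the libraries labelled KO2 and those labelled WT of *Peg3*, *Ppp1r9a*, *Plagl1* and *Peg10* (panels) as reported and under each of the 13 processing alternatives (rows), with filled diamonds for an adjusted p under 0.05. The 3 called genes stay below 0 in all rows and are open without the filter and with ERCC scaling, while *Peg10* is filled in 2 rows.

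The calls of *Peg3*, *Ppp1r9a* and *Plagl1* held in 11 of 13 alternatives each, with log2 fold changes from -0.88 to -0.73, from -1.30 to -0.83 and from -1.6 to -1.0. They were lost without the filter on low counts (adjusted p between 0.134 and 0.157, edgeR) and with scaling to the ERCC spike-ins, synthetic RNAs added to the sample (adjusted p = 0.439, 0.189 and 0.0603, edgeR), while the direction stayed the same.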

How the data were processed

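Total RNA from 4 samples was sequenced by the authors, who mapped the reads to mm9 with hisat2 and deposited raw HTSeq counts per gene for each replicate. Versions, annotation and counting options are not given in the sources used here. HTSeq's 5 summary rows, 52.9% to 58.8% of each file, and 92 ERCC rows stayed out of library sizes and tests. Coordinates and exon lengths came from GENCODE vM1 (mm9), and promoter windows from RefSeq (GRCm38.p6). Symbols of the listed genes were matched through a list of gene names, with RefSeq synonyms where a symbol was missing. That list held 32782 of the 48526 gene rows. Libraries are strand-specific, but of 30 genes with 95% of their exon bases under opposite exons of a gene with over 200 reads per kb, 28 had 0 counts (*Gm20417* among them, opposite *Malat1*, which had 122569 counts over the 4 samples), so use of strand in counting is doubtful and antisense partners cannot be told apart with certainty.

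Counts were scaled with TMM and genes kept with filterByExpr (minimum count 10, total 15). The 12883 genes left were tested with edgeR 4.0.16 (R 4.3.3; glmQLFit with legacy=FALSE, glmQLFTest; 2-sided), with condition as the only term, and Benjamini-Hochberg adjustment over all of them at 0.05. Standard errors are the log2 fold change divided by the root of F. CPM are given per library. Alternatives were RLE scaling, no filter, a floor of 10 counts per sample, DESeq2 1.42.0 (the tool the study names), the older quasi-likelihood method, a replicate block, removal of Y-linked, mitochondrial and small RNA genes, ERCC scaling, thinning to 2829914 counts (seed 1) and leaving out each sample, always on the genes first kept unless the filter itself was changed. Fits were also run on simulated counts with known changes and the same spread for every gene. This checks the code and not how well the fits suit these data.

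Every member was to be accounted for, with values per library for those called, those sharing a cluster with one called and those with at least 30 counts in every sample. Members, classes and lists were chosen with earlier results of these data known.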

Additional observations from a re-analysis of the deposited data

How the results depend on the processing

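The number of imprinted genes called lower moved from 3 to 0 without the filter on low counts and to 0 with ERCC scaling, and lay between 3 and 4 when 1 library was left out. The number called higher moved from 0 to 1 with DESeq2 and to 1 without Y-linked, mitochondrial and small RNA genes, in both cases *Peg10*, and was 0 in every fit without 1 library. Over all genes, 727 calls became 61 without the filter, where 25397 genes were tested, 163 with ERCC scaling, and 457 to 666 when 1 library was left out, with 457 without KO2 replicate 1 and 461 without WT replicate 1. The cause of the loss with ERCC scaling was not tested.

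The replicate block gave 950 calls over all genes, and 3 imprinted genes lower and 0 higher as without it, and changed no call among the imprinted genes. Deviations of same-numbered replicates correlated at -0.0166 across genes, so the numbers do not show a pairing.

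Of the values per imprinted gene and alternative, 325 kept direction and side of the threshold, 6 lost the call, 4 gained it and 13 changed sign, none of these called. With ERCC scaling, *Sgce* was at 0.01, *Copg2* at 0.04 and *Rtl1* at 0.00. With 1 library left out, *H19* ranged from -1.21 to 0.62, *Usp29* from -3.63 to -1.24, *Ndn* from -0.39 to 1.65, *Sgce* from -0.14 to 0.02, *Copg2* from -0.17 to 0.03, *Mkrn3* from -0.06 to 0.41, *Peg12* from -0.03 to 0.54, *Grb10* from -0.09 to 0.47 and *H13* from -0.17 to 0.29.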
